A study of Mus musculus with 73 samples.

Results

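Eed-disrupted extraembryonic ectoderm (ExE) was compared with wild-type ExE in mouse embryos at embryonic day 6.5. The members were the libraries whose titles name ExE with Eed or ExE with the BDF1xCAST wild type, which gave 10 Eed and 7 wild-type libraries, 17 of the 72 RNA libraries in the deposited table. Each library was 1 embryo, so the tests below measure the spread between embryos. Of 30546 genes in the table, the 29557 autosomal genes were described, and X-linked genes were used only where named.

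All 17 embryos had a BDF1 mother and a CAST father. The oocytes were fertilised by sperm injection, and blastocysts developed to the day of collection in CD-1 females, per the labels. The Eed group was made by injecting zygotes with Cas9 mRNA and several guide RNAs against different exons of Eed, chosen to avoid CAST polymorphisms. The edited alleles of each embryo were not typed in the data used here, and an injected embryo can carry a mixture of them. The oocytes came from unedited females. The labels call the groups Eed deletion and wild type and give the sex: 4 females and 6 males with Eed disruption, 3 females and 4 males without. The tissue was cut from the epiblast, and the visceral endoderm was stripped off. Libraries from 4 wild-type ExE of the reciprocal cross (CAST mother, BDF1 father, natural mating) served to separate parental from strain effects. Epiblast of 9 Eed and 7 wild-type embryos of the same cross served for the tissue comparison. Epiblast and ExE libraries share embryo numbers, so many come from the same embryos. For some Eed libraries the title numbers are offset from the embryo numbers. Pairing these by title would join some libraries of opposite sex, while the embryo numbers gave the same sex in both tissues for Eed embryos 8, 9 and 10. Identity beyond sex was not tested, so some doubt on those pairs remains. The main tissue tests did not pair the libraries.

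Eed is the subunit of Polycomb repressive complex PRC2 that binds trimethylated lysine 27 of histone H3 and is needed for the complex to place that mark. The mark covers CpG-rich promoters of developmental regulators that are off in a lineage. The ExE is the trophoblast tissue next to the epiblast: it holds stem-like progenitors that later feed the ectoplacental cone, the giant cells and the labyrinth of the placenta. In trophoblast, part of the imprinted genes are silenced on 1 parental chromosome by histone marks in place of DNA methylation, and the paternal X chromosome is the one that is silenced in females.

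Promoters of 2 genes that were higher and 2 that were lower are shown, because CG-dense promoters are where PRC2 is known to act. They were chosen after the expression values were seen. They are RefSeq sequences of GRCm38.p6, the 250 bases before the annotated start, written 5′ to 3′ on the gene's strand, with each CG in capitals. Wnt4 lies on the plus strand of chromosome 4 (window 137277385 to 137277634), Barx1 on the plus strand of chromosome 13 (48662786 to 48663035), Eomes on the plus strand of chromosome 9 (118477939 to 118478188) and Bmp4 on the minus strand of chromosome 14 (46390670 to 46390919).
Wnt4: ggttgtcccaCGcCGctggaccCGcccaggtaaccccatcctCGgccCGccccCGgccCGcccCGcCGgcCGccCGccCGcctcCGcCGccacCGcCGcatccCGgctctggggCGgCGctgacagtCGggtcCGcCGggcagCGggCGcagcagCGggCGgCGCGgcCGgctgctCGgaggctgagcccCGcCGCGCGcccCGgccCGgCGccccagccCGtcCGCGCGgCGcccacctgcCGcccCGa
Barx1: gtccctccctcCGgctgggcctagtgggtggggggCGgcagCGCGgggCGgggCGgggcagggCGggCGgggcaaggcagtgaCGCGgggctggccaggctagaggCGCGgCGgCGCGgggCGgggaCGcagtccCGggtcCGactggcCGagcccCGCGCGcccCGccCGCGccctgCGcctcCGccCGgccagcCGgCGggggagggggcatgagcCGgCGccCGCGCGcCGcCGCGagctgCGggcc
Eomes: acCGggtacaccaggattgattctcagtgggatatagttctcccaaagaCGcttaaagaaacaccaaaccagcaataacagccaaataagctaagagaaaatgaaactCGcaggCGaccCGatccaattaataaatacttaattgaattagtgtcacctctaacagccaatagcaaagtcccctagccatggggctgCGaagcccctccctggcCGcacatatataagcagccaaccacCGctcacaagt
Bmp4: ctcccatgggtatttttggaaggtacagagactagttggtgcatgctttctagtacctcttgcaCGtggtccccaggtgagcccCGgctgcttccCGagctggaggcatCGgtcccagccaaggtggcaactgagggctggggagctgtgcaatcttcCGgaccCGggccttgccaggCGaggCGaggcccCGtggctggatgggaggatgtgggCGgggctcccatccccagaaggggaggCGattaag
The Wnt4 window held 44 CG and the Barx1 window 40. The Eomes window held 8 and the Bmp4 window 11. Among the 21147 autosomal windows of the same length, the median was 7 CG and 31.1% held at least 15. The 4 promoters do not stand for the genes that changed. Over the 78.5% of tested genes with a window the median was 17 CG, and it was 15 among genes that rose and 18 among genes that fell. With a window for so few of the tested genes, a comparison of CG content over called genes is void. CG is its own reverse complement, so a count covers both strands.

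The reads counted were those over polymorphisms between BDF1 and CAST. They numbered 2685835 to 3053690 in the wild-type libraries and 2116969 to 3976031 in the Eed libraries. Levels are given as counts per 1000000 of those reads in the library (CPM), which depend on how many polymorphisms a gene holds and are not compared between genes. The fitted log2 changes also include a scaling factor per library, 0.816 to 1.01 in wild type and 0.850 to 1.14 in Eed, so they lie somewhat below the ratio of CPM. The first principal component over all tested genes took 49.5% of the variance and separated the groups. The second took 11.7% and set apart wild-type embryos 6 and 8 and Eed embryos 7 and 10, so results are also given without each pair where that changes them. Of the 12 ExE markers, all but Cdx2 and Furin were read in every one of the 17 libraries, Eomes, Elf5, Bmp4 and Tfap2c among them. Cdx2 had 0 reads in Eed embryo 3 and 1 read in Eed embryo 6, and Furin had 0 reads in libraries of both groups. The epiblast marker Pou5f1 reached at most 0.311 CPM in any of the 17. Other epiblast markers were read. In Eed embryo 10, Tdgf1 stood at 21.0 CPM (at most 1.97 CPM in the other Eed embryos), Trh at 13.7 CPM and Fgf5 at 8.53 CPM, and in wild-type embryo 6 Nanog stood at 7.67 CPM and Tdgf1 at 6.67 CPM.

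Eed itself fell in every embryo. Its level was 103, 218 and 248 CPM (lowest, median and highest) in wild-type ExE and 3.87, 7.60 and 17.4 CPM in Eed ExE. No Eed library reached the lowest wild-type library. The log2 change was −4.79 (SE 0.26, edgeR adjusted p 1.95e-11). In bulk tissue, fewer cells with an intact gene and less RNA per cell cannot be told apart.

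Among the other PRC2 genes tested, Jarid2, Mtf2 and Suz12 fell and Ezh1 and Phf19 rose. Jarid2, which helps recruit the complex, lay at 72.8, 98.6 and 127 CPM in wild type and 33.5, 48.1 and 67.7 CPM in Eed ExE, without overlap (log2 change −1.15, SE 0.14, edgeR adjusted p 2.67e-06). Ezh1, the alternative catalytic subunit, lay at 5.00, 7.89 and 14.1 CPM against 11.7, 26.0 and 43.8 CPM, and 9 of 10 Eed embryos were above the highest wild type (log2 change 1.42, SE 0.24, edgeR adjusted p 8.25e-05). Phf19, an accessory subunit, changed by 1.33 on the log2 scale (SE 0.24, edgeR adjusted p 0.000171). Ezh2, the main catalytic subunit, did not pass the test (log2 change −0.20, SE 0.11, edgeR adjusted p 0.157), nor did Rbbp4 and Aebp2 (−0.14 and −0.31). Of 15 PRC1 genes tested, Cbx8, Bmi1 and Pcgf5 rose and Scmh1 and Pcgf6 fell, shares near or below the 22.3% and 18.2% of all tested genes that rose and fell. Bmi1, a subunit of canonical PRC1, had 4.33, 8.24 and 11.2 CPM in wild type and 11.9, 18.3 and 35.8 CPM in Eed ExE, without overlap (log2 change 1.03, SE 0.23, edgeR adjusted p 0.00117).

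**Figure D1:**
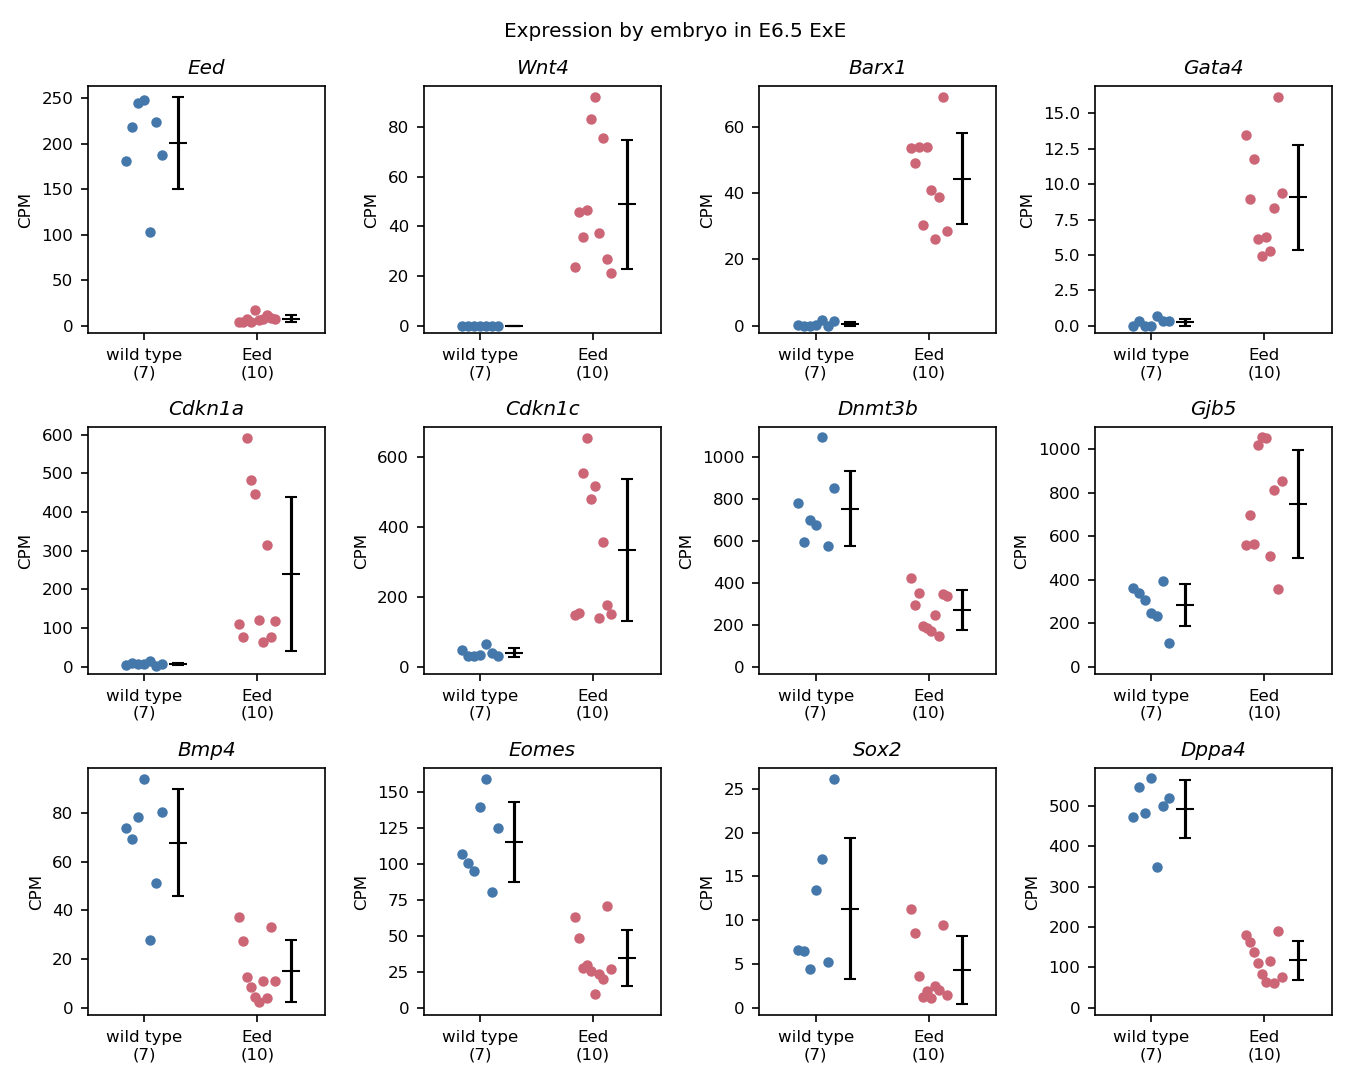
Level (CPM) of 12 genes in each embryo on a linear axis per gene, wild type (7) beside Eed (10). Points are embryos and bars the mean and SD. Eed, Eomes and Dppa4 lie lower in all 10 Eed embryos, and Wnt4, Barx1, Gata4, Cdkn1a and Cdkn1c lie higher in all 10.

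Across the autosomes, 9728 genes had enough reads to be tested. At an adjusted p of at most 0.05, 2169 genes rose (22.3%) and 1773 fell (18.2%). Together these were 40.5% of the genes tested. Changes of at least 1 on the log2 scale were more often upward, with 1371 genes higher (14.1%) and 297 lower (3.05%). The median log2 change was 1.22 among genes that rose and −0.63 among genes that fell. Every Eed library lay above every wild-type library for 614 genes (6.31%) and below for 133 (1.37%). All 205 tested genes with a wild-type mean under 1 CPM were higher, which the filter on low counts makes unavoidable, since such genes entered the test only through the Eed libraries.

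Among separated genes with a mean of at least 10 CPM in Eed ExE, those with the largest rises were at or near 0 in wild type. Wnt4, a secreted signalling ligand, had 0 reads in all 7 wild-type libraries and 21.0, 41.6 and 91.8 CPM in the Eed libraries. Against a floor of 3 reads per wild-type library, its mean of 48.8 ± 25.7 CPM (SD, n = 10) was at least 47.1-fold higher (edgeR adjusted p 6.97e-08). Dlx4os, the transcript antisense to the homeobox gene Dlx4, had 0 wild-type reads and 6.26, 21.9 and 49.9 CPM, at least 22.5-fold higher. Dlx4 itself had 0 wild-type reads and 2.36, 4.17 and 8.38 CPM, at least 4.49-fold higher. The 2 overlap on the genome, and reads of a gene and its antisense partner cannot be told apart without strand.

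Barx1, a homeobox factor of stomach and jaw, rose from 0, 0.327 and 1.67 CPM to 26.1, 45.1 and 68.8 CPM (log2 change 6.06, SE 0.41, edgeR adjusted p 9.42e-10). Crabp1, which binds retinoic acid in the cytoplasm, rose from 0, 0.987 and 2.33 CPM to 43.5, 72.1 and 99.1 CPM (log2 change 5.76, SE 0.30, edgeR adjusted p 1.95e-11). All 10 Eed embryos were above all wild types for both genes. Tesc, Sct, Pkib, Mef2b, Ankrd2, Slco4a1, LOC106557447 and Gm26973 completed the 12 largest rises among these genes, with log2 changes from 5.59 (Gm26973, whose reads are nearly those of Nkx2-9) to 6.53 (Tesc). A ranking by size of the rise favours genes near 0 in wild type. All of the 12 but Crabp1 had wild-type means under 1 CPM and entered the test through the Eed libraries, so the filter fixed their calls as higher.

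The falls were taken from separated genes with a mean of at least 10 CPM in wild type. Dppa4 and its partner Dppa2 are chromatin factors of early embryos. Dppa4 lay at 349, 499 and 567.8 CPM in wild type and 60.4, 113 and 191 CPM in Eed ExE (log2 change −2.25, SE 0.20, edgeR adjusted p 5.59e-08). Dppa2 lay at 45.5, 58.3 and 106 CPM against 1.29, 14.2 and 30.7 CPM (log2 change −2.38, SE 0.45, edgeR adjusted p 0.000241). Neither gene overlapped between the groups. Ubash3b, a phosphatase that dampens receptor signalling, fell from 113, 129 and 149 CPM to 9.39, 19.3 and 32.8 CPM (log2 change −2.95, SE 0.16, edgeR adjusted p 1.95e-11). Aard, Gmeb2, Sez6l, Mlana, Pnp2, Dgka, Fzd7, Gm39853 and Eed itself completed the 12 largest falls among these genes. The first 8 of these lay between −2.23 (Dgka) and −3.96 (Gm39853).

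Developmental transcription factors from lineages other than trophoblast were mostly unread in wild type. Of 130 such genes with a row, 17 were tested, and 12 rose and 2 fell, with a median log2 change of 2.82 against 0.01 over all tested genes, of which 22.3% rose. In 6 of the 12 that rose the wild-type mean was under 1 CPM. Gata4, a factor of endoderm and heart, lay at 0, 0.329 and 0.667 CPM in wild type and 4.92, 8.64 and 16.1 CPM in Eed ExE (log2 change 4.81, SE 0.48, edgeR adjusted p 1.90e-07). Prrx2 (limb and facial mesenchyme), Irx4 (cardiac ventricle) and Six2 (kidney progenitors) changed by 4.63, 3.65 and 3.37 on the log2 scale. For these 4 genes every Eed embryo was above every wild type. Msx1 and Tbx18 did not pass the test, with log2 changes of 0.32 and 0.96. Most members were absent from the test for want of reads, and the tested members entered largely through the Eed group, so their shares are not a measure of the whole list. Without wild-type embryos 6 and 8, 21 were tested and 17 were higher.

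Hox genes, the classical Polycomb targets that pattern the body axis, were nearly unread in wild type. Of 35 in the table only Hoxb13 was tested, and it rose from 0, 0.358 and 0.982 CPM to 2.75, 4.99 and 12.1 CPM (log2 change 3.4, SE 0.46, edgeR adjusted p 8.04e-06). Hoxb13 had a wild-type mean under 1 CPM and entered the test through the Eed libraries, so the filter fixed its call as higher. The summed level of the listed Hox genes was 0.358 to 1.79 CPM in wild type and 9.77 to 47.7 CPM in Eed ExE, with no overlap, and this sum was not tested. Without wild-type embryos 6 and 8, 2 Hox genes were tested under the same filter and both were higher.

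Of 15 Wnt pathway genes tested, 7 rose (Wnt4, Wnt3, Rspo4, Rspo1, Sfrp1, Fzd6 and Fzd3) and 3 fell (Fzd7, Wnt6 and Fzd1), with a median log2 change of 0.35. Over all tested genes 22.3% rose and 18.2% fell. Of the 7, Wnt4, Wnt3, Rspo4 and Sfrp1 had wild-type means under 1 CPM and entered the test through the Eed libraries. Wnt3, a ligand that in the embryo acts at the posterior epiblast, rose from 0, 0 and 0.658 CPM to 1.95, 5.80 and 15.5 CPM (log2 change 4.97, SE 0.65, edgeR adjusted p 5.09e-06). The secreted Wnt enhancers Rspo4 and Rspo1 changed by 6.49 and 2.28. The secreted Wnt inhibitor Sfrp1 rose from 0, 0 and 3.67 CPM to 14.7, 22.3 and 27.3 CPM. The receptor Fzd7 fell from 7.90, 13.1 and 25.3 CPM to 1.56, 3.06 and 5.67 CPM, without overlap (log2 change −2.36, SE 0.30, edgeR adjusted p 3.00e-06). Wnt7b, a trophoblast ligand, and the co-receptor Lrp6 did not pass the test (log2 changes 0.13 and 0.09).

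Genes of the germline are otherwise silent in most somatic cells. Of 17 tested, 11 rose and 6 did not pass, with a median log2 change of 1.19, against 22.3% higher over all tested genes. Brdt and Tdrd5, 2 of the 11, had wild-type means under 1 CPM and entered the test through the Eed libraries. Sycp1, a component of the meiotic synaptonemal complex, rose from 8.19, 13.4 and 27.9 CPM to 73.9, 117 and 165 CPM (log2 change 2.84, SE 0.23, edgeR adjusted p 1.65e-08). Dppa3 (Stella), which protects the maternal genome in the zygote, rose from 0, 1.32 and 5.38 CPM to 10.6, 22.9 and 79.1 CPM (log2 change 4.05, SE 0.60, edgeR adjusted p 2.08e-05). Both were separated in all embryos. Without wild-type embryos 6 and 8, 1 of 20 germline genes tested was lower.

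**Figure D2:**
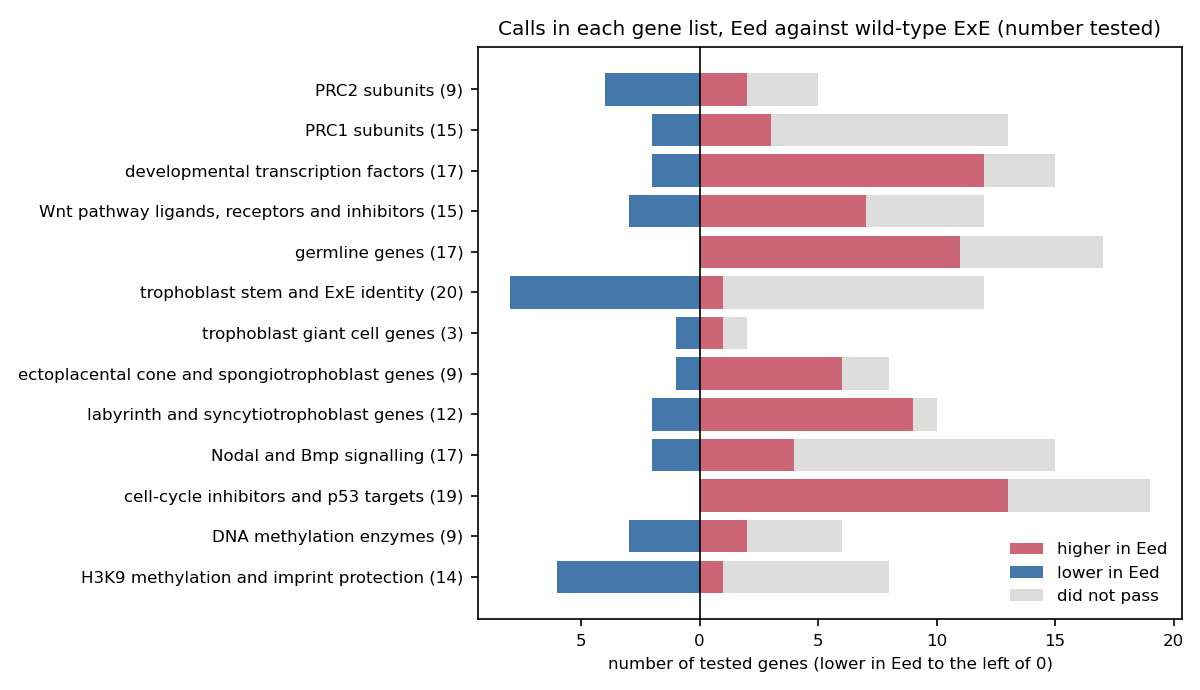
Number of tested members of 13 gene lists that were higher, lower or not past the test in Eed ExE (adjusted p at most 0.05). Higher were 11 of 17 germline genes, 13 of 19 cell-cycle inhibitors and p53 targets and 12 of 17 developmental factors, against 22.3% of all tested genes, and lower were 8 of 20 trophoblast stem and ExE identity genes, against 18.2%. Part of the germline genes and developmental factors entered the test only through the Eed libraries, where they are high.

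Genes that maintain the trophoblast stem state and the ExE fell where they passed the test, with 1 exception. Of 20 tested, 8 fell, 1 rose and 11 did not pass, with a median log2 change of −0.80, while 18.2% of all tested genes fell. Eomes, a T-box factor required for trophoblast stem cells, lay at 80.3, 107 and 159 CPM in wild type and 9.77, 27.5 and 71.2 CPM in Eed ExE, with no overlap (log2 change −1.93, SE 0.26, edgeR adjusted p 8.45e-06). Bmp4, the signal the ExE sends to the epiblast, lay at 27.7, 73.7 and 93.8 CPM against 2.34, 10.9 and 37.2 CPM, with 8 of 10 Eed embryos below the lowest wild type (log2 change −2.38, SE 0.40, edgeR adjusted p 7.54e-05). Fgfr2, the receptor for the Fgf4 signal from the epiblast, fell without overlap from 80.3, 91.5 and 178 CPM to 29.7, 55.3 and 75.8 CPM (log2 change −1.19, SE 0.19, edgeR adjusted p 5.03e-05).

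Esrrb and Elf5, factors of the trophoblast stem circuit, changed by −1.18 and −0.84 (edgeR adjusted p 0.0176 and 0.0135), and their ranges overlapped. Sox2 changed by −1.65 (edgeR adjusted p 0.00806), a call lost without wild-type embryos 6 and 8 (0.131). Cdx2 (log2 change −0.99, SE 0.54, adjusted p 0.15), Tfap2c (−0.43, SE 0.25, adjusted p 0.177), Gata3 (−0.01, SE 0.25, adjusted p 0.986) and Ets2 (−0.22, SE 0.23, adjusted p 0.474) did not pass edgeR's test. The only member that rose was Gata2, a factor of differentiating trophoblast, from 0, 0.372 and 3.27 CPM to 1.24, 6.22 and 14.7 CPM (log2 change 2.92, SE 0.58, edgeR adjusted p 0.000427). Its wild-type mean was under 1 CPM, so it entered the test through the Eed libraries, where it is high.

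Genes of later trophoblast lineages were counted in 3 lists, beside 22.3% higher and 18.2% lower over all tested genes. In the ectoplacental cone and spongiotrophoblast list 6 of 9 tested genes rose and 1 fell (median log2 change 1.24). Gjb5, a gap junction protein of trophoblast, rose from 108, 306 and 396 CPM to 359, 754 and 1055 CPM, with 9 of 10 Eed embryos above the highest wild type (log2 change 1.26, SE 0.24, edgeR adjusted p 0.00034). In the labyrinth and syncytiotrophoblast list 9 of 12 rose and 2 fell (median 0.95). Pparg, the nuclear receptor of the labyrinth, rose from 0, 2.33 and 7.24 CPM to 6.14, 43.9 and 165 CPM, and 8 of 10 Eed embryos were above the highest wild type (log2 change 4.75, SE 0.80, edgeR adjusted p 8.44e-05). Dlx3, a homeobox factor of the labyrinth, rose without overlap from 0, 4.47 and 10.2 CPM to 17.1, 33.4 and 79.3 CPM (log2 change 2.89, SE 0.44, edgeR adjusted p 2.95e-05). Of 24 giant cell genes in the table, 3 were tested and 13 had 0 reads in every library. The giant cell gene Plac8 rose (log2 change 1.68) and Lifr fell (−0.70), and the call on Lifr was lost without wild-type embryo 8 (edgeR adjusted p 0.0774) or Eed embryo 5 (0.0508).

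Of 19 cell-cycle inhibitors and p53 targets tested, 13 rose and 6 did not pass, with a median log2 change of 0.96, against 22.3% higher over all tested genes. Cdkn1a (p21), which blocks cyclin-dependent kinases, rose from 2.96, 7.15 and 14 CPM to 65.0, 121 and 590 CPM (log2 change 4.78, SE 0.53, edgeR adjusted p 6.23e-07). Cdkn1c (p57), an imprinted inhibitor of the same kinases and a factor of giant cell and spongiotrophoblast formation, rose from 29.5, 35.0 and 65.0 CPM to 139, 267 and 653 CPM (log2 change 2.86, SE 0.34, edgeR adjusted p 1.70e-06). Btg2 and Ccng1, both p53 targets, changed by 3.28 and 1.64. These 4 genes were separated in every embryo. Trp53 itself did not pass (log2 change 0.12, SE 0.17, adjusted p 0.596).

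In the Nodal and Bmp list 4 of 17 tested genes rose and 2 fell, a share of rises near the 22.3% of all tested genes and a share of falls below their 18.2%. Nodal, 1 of the 4, had a wild-type mean under 1 CPM and entered the test through the Eed libraries. Id3, a Bmp-responsive inhibitor of differentiation, rose from 3.09, 6.33 and 10.4 CPM to 33.8, 67.9 and 105 CPM, without overlap (log2 change 3.22, SE 0.26, edgeR adjusted p 1.65e-08). Bmp7 rose by 1.16 and Id1 by 1.09. Bmp8b, an ExE ligand, changed by −0.48 (edgeR adjusted p 0.0156), a call lost without wild-type embryos 6 and 8 (0.087).

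Of the enzymes of DNA methylation, the de novo methyltransferase Dnmt3b fell from 576, 696 and 1093 CPM to 146, 269 and 421 CPM, without overlap (log2 change −1.65, SE 0.21, edgeR adjusted p 2.71e-06). The maintenance enzyme Dnmt1 rose by 0.65 (SE 0.16, edgeR adjusted p 0.00274). The cofactor Dnmt3l changed by −0.92 and Tet1 by −0.70 (edgeR adjusted p 0.0239 and 0.0209), and both calls were lost without wild-type embryos 6 and 8 (0.0876 and 0.0621). For Dnmt3l, leaving out wild-type embryo 6 alone gave 0.0731, and for Tet1 leaving out Eed embryos 7 and 10 gave 0.0543. In the list for H3K9 methylation and imprint protection 6 of 14 tested genes fell (18.2% over all genes), led by Trim28, the co-repressor recruited by KRAB zinc finger proteins (log2 change −0.91, SE 0.18, edgeR adjusted p 0.000361). Without wild-type embryos 6 and 8, 3 of 15 fell.

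Markers of neighbouring tissues were read beside these changes. Over all tested genes 22.3% rose and 18.2% fell. The 12 ExE markers summed to 730 to 1377 CPM in wild type and 423 to 755 CPM in Eed ExE, and 6 of the 11 tested fell. Epiblast markers summed to 215 to 398 and 375 to 739 CPM, mostly from Utf1, which rose (log2 change 0.95, edgeR adjusted p 0.000368). Visceral endoderm markers summed to 21.6 to 85.0 and 41.6 to 134 CPM: Dab2, Rbp4 and Amn rose. Afp and Apoc2 were read in every library and did not pass, and Fgb had 0 reads in all libraries. Decidua markers summed to 5.36 to 12.5 and 13.5 to 53.0 CPM: Des rose, while Dcn and Col3a1 had 0 reads. Streak and mesoderm markers summed to 20.4 to 78.2 and 19.9 to 64.1 CPM, with Pdgfra higher and T and Kdr lower (Kdr not past without wild-type embryo 8, adjusted p 0.0827). Des and Pdgfra had wild-type means under 1 CPM and entered the test through the Eed libraries, where they are high, so the filter fixed their calls. Parietal endoderm markers summed to 371 to 532 and 267 to 628 CPM, with Col4a1 and Col4a2 higher and Pth1r lower. Blood markers summed to at most 0.745 and 5.48 CPM. The part of other cell types in the changes above was not tested.

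The parental origin of reads was examined next. The maternal share is the percentage of a gene's reads over polymorphisms that carry the BDF1 allele. Over all autosomal reads it was 56.4% to 57.8% in the ExE libraries of both groups. In the reciprocal wild-type cross the maternal (CAST) share was 42.7% to 43.9%, so BDF1 reads prevailed in both crosses. The shares below are not corrected for this. Of 8959 autosomal genes tested, 109 moved toward the maternal allele (1.22%) and 128 toward the paternal allele (1.43%). The groups' shares did not overlap for 77 genes (0.859%). In wild-type ExE, both crosses together called 43 genes imprinted of 8654 tested (0.497%). Of these 43, 29 changed in Eed ExE: 10 of the 13 maternally expressed genes and 19 of the 30 paternally expressed ones. All 29 moved toward equal shares. A gene chosen for a share near 0% or 100% can hardly move any other way. In the same allelic test 2.65% of all genes changed in either direction.

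**Figure D3:**
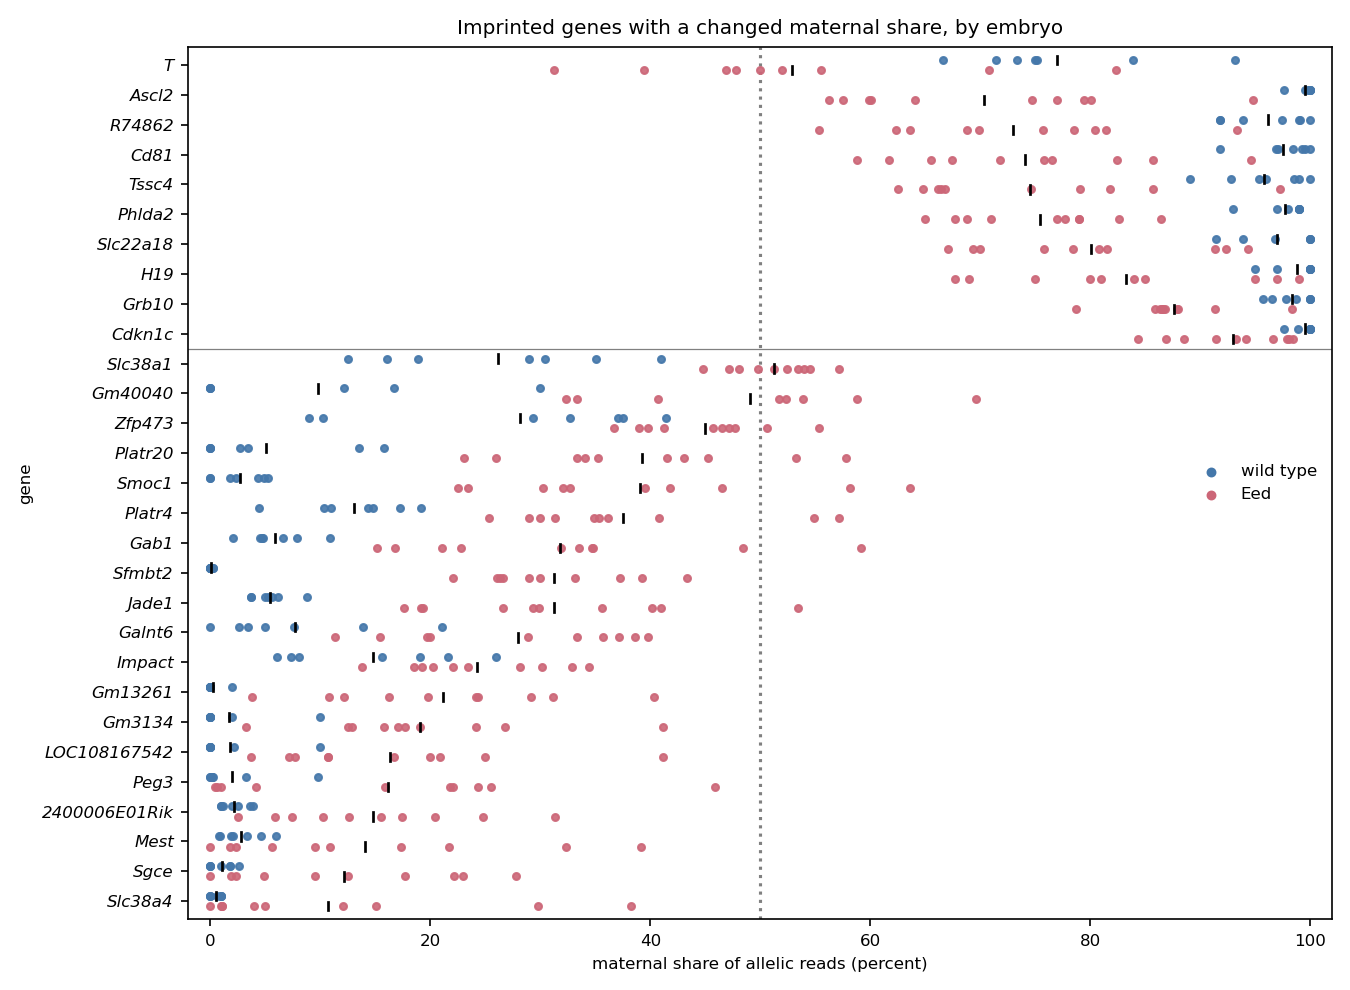
Maternal share (percent of reads) of the 29 imprinted genes that changed, one row per gene, with a point for each wild-type and each Eed embryo and a tick at each group mean. Wild-type points sit near 0% or near 100% for most genes, and Eed points lie closer to 50%.

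Among paternally expressed genes, Sfmbt2, a Polycomb-group gene needed for trophoblast, had the lowest adjusted p. Its maternal share was 0%, 0% and 0.199% (lowest, median and highest) in wild type and 22.1%, 29.5% and 43.4% in Eed ExE, with no overlap (log2 change of the maternal to paternal ratio 9.69, SE 0.35, edgeR adjusted p 2.09e-17). Its maternal reads rose (edgeR adjusted p 1.96e-13), and its paternal reads did not pass the test (log2 change 0.25, adjusted p 0.157). Rounding of the deposited ratios can set a share of 0% in so deeply read a gene, so the sizes of these log2 changes are uncertain. The transcript Gm13261 next to Sfmbt2 on chromosome 2 moved from 0%, 0% and 1.92% to 3.80%, 22.0% and 40.4%.

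Smoc1, a secreted matricellular protein, had 0%, 2.33% and 5.26% maternal reads in wild type and 22.5%, 36.1% and 63.6% in Eed ExE (edgeR adjusted p 8.68e-07). Gab1, an adaptor of growth factor receptors, had 2.04%, 4.78% and 10.9% against 15.1%, 32.7% and 59.2% (edgeR adjusted p 1.23e-05). Platr20 had 0%, 2.70% and 15.8% against 23.1%, 38.4% and 57.8% (edgeR adjusted p 5.61e-05). None of these 3 genes overlapped between the groups. All 3 are listed among genes imprinted without DNA methylation in trophoblast.

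Jade1 (chromosome 3, 41555734 to 41616864, mm10) encodes a chromatin reader and lies in a run of paternally expressed transcripts. Its maternal share moved from 3.66%, 5.23% and 8.75% to 17.6%, 29.6% and 53.5%, without overlap (edgeR adjusted p 4.09e-07). The neighbours Gm40040, Platr4 and 2400006E01Rik, which start between 41474907 and 41500931, also moved toward the maternal allele, with mean shares of 9.80% against 49.1%, 13.03% against 37.5% and 2.15% against 14.8%. The maternal reads of Jade1 rose (log2 change 2.43) and its paternal reads fell (log2 change −0.74), while its total did not pass the test (−0.22, edgeR adjusted p 0.38).

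On chromosome 15, the amino acid transporter gene Slc38a1 moved from 12.5%, 29.0% and 40.9% maternal to 44.8%, 51.8% and 57.2%, without overlap (edgeR adjusted p 4.78e-05). Its neighbour Slc38a4 is a trophoblast transporter imprinted in the placenta. It moved from a mean of 0.498% to 10.7% with overlap (edgeR adjusted p 0.0262), a call lost in limma (adjusted p 0.18), without wild-type embryos 6 and 8 (0.069) and with Eed embryo 6 or wild-type embryo 1, 2 or 3 left out (0.0517 to 0.0586). Galnt6, a glycosyltransferase gene on the same chromosome, moved from 0%, 5.00% and 21.1% to 11.4%, 31.1% and 39.8% (edgeR adjusted p 0.00445). Zfp473, a zinc finger gene on chromosome 7, moved from 8.97%, 32.7% and 41.4% to 36.7%, 46.1% and 55.3% (edgeR adjusted p 0.0269). The call on Zfp473 was lost in limma (adjusted p 0.122), with all groups in 1 fit (0.052) and without wild-type embryo 1 (0.0863), wild-type embryo 6 (0.0729) or Eed embryo 4 (0.0524).

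Sgce, Mest, Peg3, Impact and Peg10 are paternally expressed genes whose imprint is known to rest on DNA methylation set in the germline. Sgce went from a mean of 1.02% ± 1.07 (SD, n = 7) to 12.2% ± 10 (n = 10, edgeR adjusted p 0.00349), a call lost in limma (adjusted p 0.0646). Mest (2.78% to 14.05%, edgeR adjusted p 0.0479), Peg3 (1.94% to 16.1%, adjusted p 0.0338) and Impact (14.8% to 24.3%, adjusted p 0.0496) passed narrowly and lost their calls when any of several embryos was left out. Peg10, a gene of retroviral origin needed for the placenta, had a maternal share of 0% in all wild types and 0%, 7.71% and 31.9% in Eed ExE, which did not pass (edgeR adjusted p 0.227). With the embryo number as a block this ratio did pass (edgeR adjusted p 0.00025). The maternal reads of Peg10 rose from 0 to a mean of 14.2 CPM (log2 change 8.29, edgeR adjusted p 0.00338). Its paternal reads rose too (log2 change 1.98, edgeR adjusted p 3.95e-06). Gnas, H13 and Commd1 are listed as maternally expressed but were not called imprinted in wild-type ExE. Their mean maternal shares there were 67.0%, 65.4% and 47.2%. They did not pass the allelic test, and their mean shares differed by at most 3.48 points. Without a called imprint in wild type, this does not show whether an imprint was kept.

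Of the 10 maternally expressed genes that changed, 7 lay on distal chromosome 7, in the domain governed by the long noncoding RNA Kcnq1ot1. Ascl2 (142966822 to 143008033), a factor of the ectoplacental cone, went from 97.6%, 100% and 100% maternal to 56.3%, 69.4% and 94.8%, without overlap (log2 ratio change −7.45, SE 0.70, edgeR adjusted p 5.41e-08). Phlda2 (143501545 to 143503145), a growth-limiting placental gene, went from 93.0%, 99.0% and 99.0% to 65.0%, 77.3% and 86.4%, without overlap (log2 ratio change −3.86, SE 0.31, edgeR adjusted p 6.28e-09). Between them, Cd81 went from a mean of 97.6% to 74.0%, Tssc4 from 95.8% to 74.5% and Slc22a18 from 97.0% to 80.1%, with edgeR adjusted p-values of 4.02e-05, 0.000467 and 0.00629. R74862 overlaps Cd81, so their reads are uncertain as separate genes.

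Cdkn1c stood apart within this domain. Its maternal share moved from a mean of 99.5% ± 0.904 (SD, n = 7) to 93.0% ± 5.05 (n = 10, edgeR adjusted p 0.0175), a call lost without wild-type embryo 6 (0.0554). Its maternal reads nevertheless rose by 2.73 on the log2 scale (edgeR adjusted p 1.97e-06), so most of the added reads came from the allele already active. For Ascl2 and Phlda2 the gain in mean level was of similar size on both alleles. Ascl2 went from 96.8 to 171 CPM of maternal and from 0.192 to 78.9 CPM of paternal reads, and Phlda2 from 1241 to 1705 and from 34.7 to 612 CPM. Their paternal reads rose by 8.22 and 4.02 on the log2 scale (edgeR adjusted p 1.95e-09 and 1.57e-05). Their maternal reads did not pass (adjusted p 0.0953 and 0.417), although those of Ascl2 did without wild-type embryo 6 (0.0119). Nap1l4, at the edge of the domain (143513579 to 143549196), was read from both alleles in both groups, with mean maternal shares of 54.8% and 54.7%.

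Outside that domain, H19, a growth-limiting noncoding RNA, went from 95.0%, 100% and 100% maternal to 67.7%, 82.5% and 99.0% (edgeR adjusted p 0.00261). Grb10, a growth-limiting adaptor on chromosome 11, went from 95.7%, 98.7% and 100% to 78.7%, 86.7% and 98.3% (edgeR adjusted p 0.00017). The T-box gene T went from a mean of 76.9% to 52.9% (edgeR adjusted p 0.00943), a call lost in limma (adjusted p 0.0781), while its maternal reads fell by 2.35.

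Over the 29 genes, the reads of the silent allele rose for 26 and did not pass for the rest. In the tests of maternal and paternal reads, 18.4% and 18.9% of all genes rose. The 29 genes were chosen for a changed ratio, so rises of their silent allele largely restate that choice. The reads of the active allele rose for 6, fell for 7 and did not pass for the rest. For Mest, Gm3134 and LOC108167542 the paternal (active) reads fell by 1.15, 1.51 and 1.64, and the last 2 share reads with each other.

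**Figure D4:**
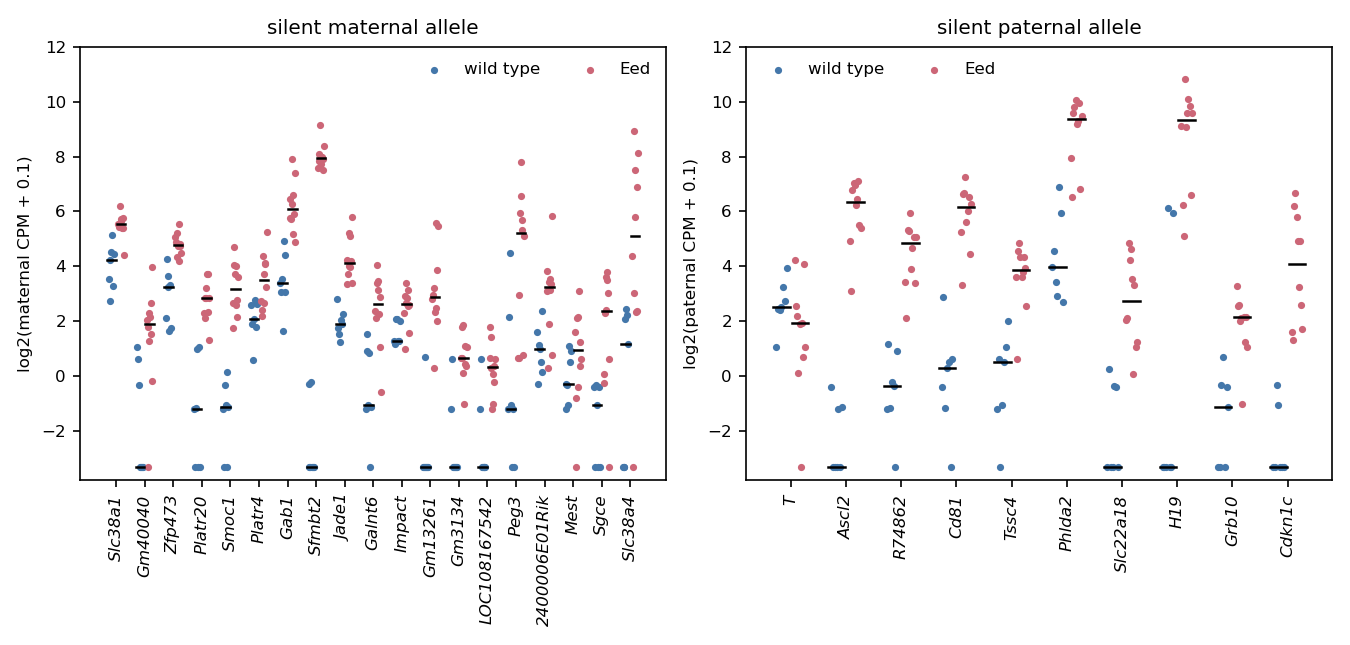
Level of the normally silent allele, as log2(CPM + 0.1), in each embryo for the imprinted genes that changed, with ticks at the group medians. For Sfmbt2 and Ascl2 every Eed embryo lies above every wild type, while for Gab1 and Phlda2 the groups touch.

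Embryos differed in how far the silent alleles were read. The median share of the silent allele over imprinted genes with at least 20 reads was 1.07% to 3.01% in the 7 wild types. In the Eed embryos it ran from 6.43% (embryo 2) through a median of 20.8% to 30.1% (embryo 4), and no Eed embryo overlapped the wild types. Embryo 9 (12.4%) was the next lowest after embryo 2. For maternally expressed genes alone the range was 0% to 2.38% in wild type and 5.30% to 32.3% in Eed ExE. For paternally expressed genes it was 1.07% to 3.53% and 11.4% to 29.3%. These genes were chosen partly on wild-type shares, so the wild-type values are low by choice.

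**Figure D5:**
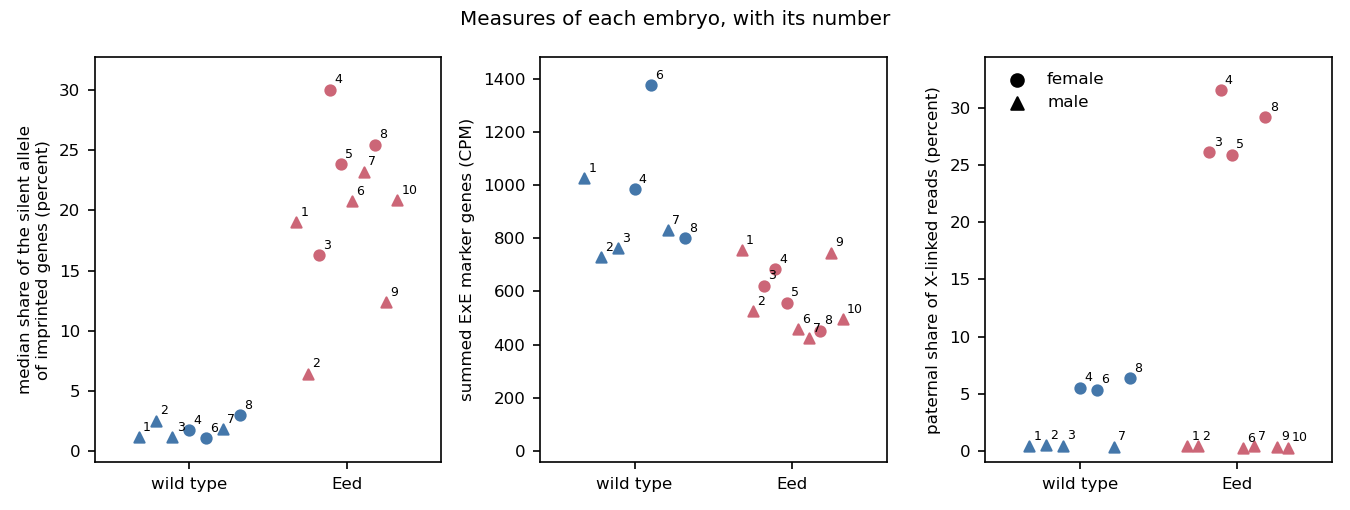
Silent-allele share (percent), summed CPM of the 12 ExE markers and paternal share of X-linked reads (percent) for each embryo, by sex. Silent shares are 1.07% to 3.01% in wild type and 6.43% to 30.1% in Eed, marker sums overlap between the groups, and only females have a paternal X share above 0.512%.

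A further 208 genes changed their allelic ratio without being imprinted in wild type, 90 toward maternal and 118 toward paternal. For 177 of them the shares moved toward equality. A gene with a strongly skewed share in wild type can hardly move another way, and the same count over all tested genes was not made. The median size of the change in the 208 genes was 12.1 points, against 20.9 points in the imprinted genes that changed. Of the 208, 112 (53.8%) also changed in expression, against 36.8% of the tested genes that were neither listed nor imprinted. The reciprocal cross shows a strain bias for several of them. Ptprs, a receptor phosphatase, was 98.0% maternal in wild-type BDF1xCAST and 3.20% maternal in CASTxBDF1, so BDF1 reads prevailed in both, and it stood at 72.7% in Eed ExE (edgeR adjusted p 6.50e-09). H2-Q10, a class I histocompatibility gene, was 0% maternal in all 7 BDF1xCAST wild types and 98.6% in the reciprocal cross, and ranged from 5.41% to 58.1% in Eed ExE (edgeR adjusted p 0.000117). B3galnt1, a glycosyltransferase, went from 6.08% to 47.3% with 86.7% in the reciprocal cross (edgeR adjusted p 1.78e-05). Adam8, a membrane protease, went from 90.03% to 42.3% with 8.51% in the reciprocal cross (edgeR adjusted p 5.53e-05). Class I genes and paralogs such as Acot1 and Acot2 can share reads, so their values are uncertain. The remaining Eed reads were themselves skewed, from 62.5% maternal to 33.2% (edgeR adjusted p 5.03e-06).

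X-linked reads were examined in the females. The paternal share of X-linked reads was 5.75% ± 0.534 (SD, n = 3) in wild-type females and 28.2% ± 2.69 (n = 4) in Eed females. The ranges were 5.36% to 6.36% and 25.9% to 31.5%. They did not overlap. The exact two-sided permutation p was 0.0571, the smallest that 4 against 3 embryos can give. In males, which carry a maternal X only, the share was at most 0.512%. Of 330 X-linked genes tested over both sexes, 116 rose (35.2%) and 50 fell (15.2%).

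The change in expression differed by sex for 4 of 9728 autosomal genes (0.0411%) at the adjusted threshold, 3 more positive in females (0.0308%) and 1 more negative (0.0103%), while 1480 had an unadjusted p under 0.05. DESeq2 called 37 and 51 genes, and leaving out 1 embryo at a time gave 2 to 468 and 0 to 343 in edgeR, with the highest counts without wild-type embryo 4. Serpine2, a protease inhibitor, rose from a mean of 29.8 to 408 CPM in females and from 51.0 to 173 CPM in males (log2 difference 1.88, SE 0.24, edgeR adjusted p 0.0014). Krt18, a trophoblast keratin, went from 148 to 654 CPM in females and from 352 to 336 CPM in males (log2 difference 2.11, SE 0.34, edgeR adjusted p 0.0141). Rab3b and Tns3 were the others (2.31 and −2.62). The call on Rab3b was lost without wild-type embryo 2, 6 or 7 (edgeR adjusted p 0.0552 to 0.096) and that on Tns3 without wild-type embryo 8 (0.063). Leaving out wild-type embryos 6 and 8 left 1 wild-type female, and the log2 differences were then 1.58 (Serpine2), 1.51 (Krt18), 2.44 (Rab3b) and −1.77 (Tns3), with none of the 4 called. For the allelic change, 0 of 8959 genes differed by sex in edgeR's test (lowest adjusted p 0.0913), and 540 had an unadjusted p under 0.05.

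The changes in ExE were compared with those of the epiblast of the same genotypes. Wild-type epiblast 8 stood apart, with 20567 genes read from only 1311863 reads. The other wild-type epiblasts had 14235 to 15118 genes read. Only ExE libraries were left out in turn, so no tissue test was made without epiblast 8. The expression change differed for 1711 of 11053 autosomal genes (15.5%), 989 more positive in ExE (8.95%) and 722 more negative (6.53%). Wnt4 was the most positive: its epiblast means were 0.173 CPM in wild type and 0.967 CPM in Eed, against 0 and 48.8 CPM in ExE (log2 difference 7.99, SE 2.32, edgeR adjusted p 0.0175). It entered that test through Eed ExE, where it is high. Cdkn1a rose in both tissues and more in ExE (log2 difference 2.84, edgeR adjusted p 0.000619). Dppa4 and Dppa2 went opposite ways: Dppa4 rose from 6.63 to 38.3 CPM in epiblast and fell from 491 to 118 CPM in ExE (log2 difference −4.63, SE 0.54). The change in Eomes did not differ detectably between the tissues (log2 difference −0.34, edgeR adjusted p 0.679).

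The allelic change differed between the tissues for 69 of 7978 genes (0.865%). Of the 31 genes imprinted in wild-type ExE that could be tested, 11 were among them. Several were already read from both alleles in wild-type epiblast: Jade1 had a maternal share of 47.7% in both groups of epiblast (log2 difference 2.99, SE 0.43), Gab1 47.6% and 49.7% (2.78, SE 0.57) and Cd81 67.6% and 59.9% (−3.38, SE 0.54). Phlda2 differed in another way, since epiblast was maternal in both groups, at 93.3% in wild type and 94.4% in Eed (log2 difference −3.93, SE 0.62, edgeR adjusted p 8.73e-05). Slc38a4 and Peg3 moved in epiblast too, from 1.74% to 18.6% and from 0.897% to 5.01% (edgeR adjusted p 3.36e-05 and 0.0205 there). Their changes did not differ detectably between the tissues (edgeR adjusted p 0.995 and 0.987).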

How the data were processed

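RNA of single embryos was made into cDNA with the SMART-Seq v4 kit and sequenced on an Illumina NovaSeq, per the labels' protocols. The deposited table lists RefSeq genes in mm10 coordinates, per the file headers. The authors counted reads over polymorphisms per gene, both alleles summed, and deposited these counts without normalization. The authors also deposited an allelic ratio, which is the CAST share less the equal share. The authors deposited an allelic score too, computed as a signed -log10 binomial p-value against equal alleles. STAR 2.5.0 and HTSeq are named in the submitters' processing notes. Whether counting used strand is not given in the sources used here. All value columns matched a sample.

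CAST and BDF1 counts were solved for each gene and library from total, ratio and score, with an integer solution for 712201 of 712250 scored values (99.9931%). The score was capped for 0.308% of values, where the ratio, rounded to whole percents, was used. These values held 7.61% of the reads of all libraries and belong to deeply read, strongly skewed genes. Wild-type shares of H19, Phlda2 and Slc38a4, for example, lay mostly near whole percents. A share of 0% or 100% in such genes can hide some reads of the other allele. Expression was tested on counts with edgeR 4.0.16 (quasi-likelihood, TMM scaling, filterByExpr, two-sided), adjusted by Benjamini-Hochberg over all genes tested, at a threshold of 0.05. Allelic changes were tested on maternal and paternal reads with a term for each library. A gene entered with 10 or more reads in 3 or more libraries per group. Sex and tissue differences were interaction terms. A gene was called imprinted where the parental term passed over both wild-type crosses and the maternal share was at least 70% or at most 30% in both. Scripts were tested on simulated data.

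The libraries, the gene lists and the marker lists were chosen with earlier results of these data known. The genes to name were picked as the PRC2 subunits, up to 12 separated genes per direction with at least 10 CPM, up to 6 called and 2 uncalled members of each list, every imprinted gene that changed, up to 6 other allelic changes and up to 5 sex or tissue differences per direction. Some genes picked in this way, mostly further list members and markers, stand in counts only or are not reported here. DESeq2 1.42.0, limma 3.58.1, other filters and scalings, a sex term, all ExE groups of the cross in 1 fit, and leaving out embryos were alternatives. A comparison of promoter CG content over called genes is void, since only 78.5% of tested genes had a RefSeq window.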

Additional observations from a re-analysis of the deposited data

Results flagged for a closer look

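In 10 groups of 7 wild-type embryos, 1 embryo lay far from the others by Dixon's criterion, which picks out about 1 in 20 groups by chance. The number of groups screened is not given here, so the 10 cannot be set against that rate. Embryo 8 was the highest for Gm39853 (45.0 CPM), Gmeb2 (213.7 CPM), Sez6l (23.9 CPM) and Mlana (41.4 CPM), and the lowest for the maternal share of Ascl2 (97.6%). Embryo 6 was the lowest for Dppa4 (348.8 CPM) and for the maternal share of Phlda2 (93.0%). Embryo 7 was the highest for Ankrd2 (3.95 CPM), embryo 3 for the maternal share of Peg3 (9.82%), and embryo 2 was the lowest for that of Cd81 (91.8%).

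The expression change differed between the sexes for Rab3b (2.31), Krt18 (2.11), Serpine2 (1.88) and Tns3 (−2.62), as the log2 change in females minus that in males.

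The expression change differed between the tissues, as the log2 change in ExE minus that in epiblast, for Wnt4 (7.99), Dlx4os (7.92), Spink1 (7.55), Pla2g2d (6.81), Hivep3 (6.499), Dppa2 (−5.75), Slc7a7 (−5.02), Dppa4 (−4.63), Sox21 (−4.50) and Scarf2 (−4.32). Wnt4, Dlx4os and Pla2g2d had means under 1 CPM in every group but Eed ExE and entered the test through it. Spink1 had 34.3 ± 51.3 CPM (SD, n = 7) in wild-type epiblast and at most a mean of 1.16 CPM in either ExE group. The change in the log2 ratio of maternal to paternal reads differed for Sfmbt2 (11.37), H2-Q10 (7.45), Kcnq1ot1 (7.16), B3galnt1 (4.51), Smoc1 (4.41), Jade1 (2.99), Gab1 (2.78), Ascl2 (−6.80), Adam8 (−4.997), Ptprs (−4.09), Phlda2 (−3.93), Mt3 (−3.51), Cd81 (−3.38) and Tssc4 (−2.82). The call on Kcnq1ot1 was lost without wild-type embryos 6 and 8 (edgeR adjusted p 0.0784), and that on Mt3 without wild-type embryo 2 (0.0600).

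Outside the autosomes, the paternal share of X-linked reads reached a mean of 28.2% in Eed females.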

How the results depend on the processing

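Of 296 values of single genes, 220 of which passed, 19 had another sign under 1 or more of the alternatives that gave them a value (Gata3 among them), and 0 of the 19 passed in either fit. Several alternatives tested fewer of the named genes. With no filter on low counts, 3559 genes were higher, and 2940 and 520 passed a change of at least 1 on the log2 scale upward and downward. In limma, 72 and 78 genes moved toward the maternal and paternal allele, and 128 of the genes not imprinted in wild type. With the embryo number as a replicate block, 1836 and 1438 genes were higher and lower, and 71 and 95 moved toward the maternal and paternal allele. Embryos with the same number in the 2 groups did not deviate together (correlations −0.156 to 0.134), so the numbers do not pair Eed with wild-type embryos. The block ended the allelic call on T (adjusted p 0.0774). For the tissue difference, a block on the embryo number shared by epiblast and ExE gave 847 and 700 genes more positive and more negative in ExE. There the same number can name 1 embryo in both tissues, with the doubt on some Eed numbers given above. DESeq2 called 37 positive and 51 negative sex differences of expression. Without wild-type embryos 6 and 8, which leaves 1 wild-type female, there were 0 and 0. Leaving out 1 embryo at a time gave 2 to 468 and 0 to 343, with the highest counts without wild-type embryo 4, and 0 to 2 sex differences of the allelic change in each direction. Leaving out 1 embryo gave 1916 to 2302 higher and 1493 to 1962 lower genes, 79 to 122 maternal and 95 to 148 paternal shifts, and 24 to 29 changed imprinted genes. The cause of these differences was not tested. The embryos left out in pairs were chosen after seeing the data. Reads over polymorphisms limit the genes tested, and 7 and 10 embryos limit the calls that rest on a few of them.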

Other observations

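Among genes of the report's lists, the difference between the tissues was counted by list. Of 18 Wnt pathway genes tested, 7 changed more positively in ExE than in epiblast (Wnt4, Wnt3, Rspo4, Wnt5a, Sfrp1, Fzd5 and Fzd3) and 1 more negatively (Fzd7). Wnt4, Wnt3, Rspo4 and Sfrp1 had wild-type ExE means under 1 CPM. Wnt4 entered the test through Eed ExE alone, where it is high, so its positive difference follows from the filter. Of 21 cell-cycle inhibitors and p53 targets, 5 changed more positively in ExE: Fas, Cdkn1a, Btg2, Cdkn1c and Pmaip1. Of 25 Nodal and Bmp genes, 6 changed more positively (Bmpr1b, Bmp7, Id3, Smad1, Smad5 and Bmpr1a) and 2 more negatively (Bmp4 and Bmp8b). In the trophoblast stem and ExE identity list, 4 of 20 changed more negatively in ExE (Sox21, Bmp4, Spry4 and Sox2). Over all genes, 8.95% were more positive and 6.53% more negative in ExE.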
